A study of Mus musculus with 168 samples.

Results

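Cortex of mice carrying a knocked-in Huntington's disease allele of 80 CAG repeats (Q80) was compared with cortex of mice carrying a short knocked-in allele of 20 repeats (Q20) at 6 months of age. The libraries were those whose titles gave a heterozygous Q80 or Q20 genotype and 6 months, 8 of each, and thus 16 of the 168 libraries of the study. The Q80 group held 4 females and 4 males, heterozygous for the Q80 knock-in and housed with other Q80 heterozygotes. The Q20 group held 4 females and 4 males, heterozygous for the Q20 knock-in and housed with other Q20 heterozygotes. All were C57BL/6 mice, all kept a normal mouse allele beside the knocked-in one, and no age finer than the month and no hour of tissue collection is given in the sources used here. The study also held heterozygotes with 92, 111, 140 and 175 repeats and wild types (WT), and the same genotypes at 2 and 10 months. Polyadenylated RNA was sequenced, and the values are estimated counts per gene, given here as CPM, counts scaled to a common library size.

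Huntington's disease is caused by a lengthened CAG run in the first coding exon of Htt, which adds glutamines near the start of the huntingtin protein. Medium spiny neurons of the striatum and the cortical neurons that project to them are the cells it is best known to affect. Knock-in mice carry the lengthened run in their own Htt gene, so that the gene's own promoter drives it. The start of the mouse coding sequence is shown because the alleles differ in the length of this run, with the glutamine codons in capitals (GRCm38, chr5:34761907-34761996, plus strand, exon 1, from the GENCODE M21 transcript).
Htt coding start: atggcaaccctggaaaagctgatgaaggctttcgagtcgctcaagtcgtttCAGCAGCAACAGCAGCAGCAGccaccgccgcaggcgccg
The normal mouse run has 7 glutamine codons, 6 of them CAG and 1 CAA, after 17 other codons, against nominal runs of 80 and 20 CAG in the knocked-in alleles.

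Q80 libraries held 34148190 to 39950998 estimated counts, and Q20 libraries 33835842 to 41814158. The leading numbers of the library names formed 1 block for Q80 and another for Q20, so that allele, housing and library block cannot be told apart. At 2 and 10 months the numbers of the Q80 and Q20 libraries were interleaved, while each allele was again housed on its own. Nothing in the labels says whether libraries came from separate litters or days, and the p-values measure the spread between libraries. The main fit of 6 months estimated this spread from all 56 libraries of that age, the other genotypes among them. Of the cortical markers, 12 of 12 for excitatory neurons, 12 of 12 for upper layers and 14 of 15 for deep layers had enough counts to be tested, and the excitatory ones summed to 6257 to 6791 CPM in Q80 and 5875 to 7173 CPM in Q20 libraries. A few libraries held transcripts of other tissues. The choroid plexus markers summed to 1547 CPM in Q80 Female 2 and 1645 CPM in Q20 Female 2, against medians of 240.6 CPM in Q80 and 235.3 CPM in Q20. Of the liver transcripts, albumin reached at most 0.509 CPM in Q80 libraries, and 5.26 CPM in Q20 Male 2 against at most 0.0965 CPM in the other Q20 libraries. The pituitary hormone gene Prl reached at most 0.57 CPM in Q80 libraries and 11.6 CPM in Q20 Male 4.

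Q80 and Q20 cortex differed in 2 genes. Cdr1 and Drc1 were both higher in Q80, 1.23- and 1.2-fold, and no gene was called lower. The comparison used edgeR's quasi-likelihood test over the 17611 genes with enough counts, fitted to all 56 libraries of 6 months with sex as a covariate, at a Benjamini-Hochberg adjusted p of 0.05. The 2 calls are 0.0114% of the genes tested. At an unadjusted p under 0.05 there were 898 genes (5.1%), of which 440 were higher (2.5% of all tested) and the others lower (2.6%). The 95% interval of the difference lay within 0.5 on the log2 scale, a 1.41-fold change, for 15156 genes (86.1%), and for 10213 of the 10257 genes with at least 10 CPM (99.6%). It lay within 0.2 on the log2 scale, a 1.15-fold change, for 92% of the genes with at least 10 CPM. The CPM of the 8 Q80 and 8 Q20 libraries did not overlap for 6 genes (0.0341%), which were Cdr1, Akap5, Htt, Higd1a, Zer1 and Gm9967. Genes other than Cdr1, Drc1 and Htt were chosen for the text after their values were seen. A lower count can mean fewer cells of a type or less RNA per cell, which cannot be told apart in bulk tissue.

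Cdr1, named for an antigen of cerebellar degeneration, had the smallest p. It is annotated as 1 short protein-coding gene on the minus strand (ENSMUSG00000090546, GRCm38 chrX:61184005-61185558), inside the long noncoding gene C230004F18Rik on the plus strand. The RNA from the opposite strand is known in mouse and human as a circular RNA, abundant in neurons, that binds the microRNA miR-7. Since no source states whether counting used the strand, reads of Cdr1 and of its antisense RNA cannot be told apart here. Polyadenylated RNA was sequenced, and the part of the circular RNA in these counts was not tested. The mature miR-7 sequences are shown (RefSeq, GRCm38.p6) because their seed, bases 2 to 8 in capitals, tells the strands of this locus apart.
mmu-miR-7a-5p: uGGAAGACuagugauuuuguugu
mmu-miR-7b-5p: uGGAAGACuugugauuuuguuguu
Both mature sequences share 1 seed. Its match, GTCTTCC, occurred 0 times on the Cdr1 strand of the 1554-base transcript and 79 times on the opposite strand, or 50.8 times per kilobase. Cdr1 lay at 22.87, 24.44 and 28.51 CPM (lowest, median, highest) in Q80 and at 18.18, 20.95 and 21.63 CPM in Q20 libraries. All 8 Q80 libraries lay above all 8 Q20 libraries. The means were 25.0 ± 2.17 CPM in Q80 and 20.3 ± 1.33 CPM in Q20 (SD, n = 8 each). The log2 difference was 0.30 ± 0.06 (SE, edgeR adjusted p = 0.034), a 1.23-fold level with a 95% interval of 0.19 to 0.41 on the log2 scale. The host gene C230004F18Rik differed by 0.05 ± 0.06 on the log2 scale (adjusted p = 0.99). Cdr1 averaged 23.8 CPM in Q80 females and 19.3 CPM in Q20 females, and 26.2 CPM in Q80 males and 21.3 CPM in Q20 males.

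Drc1 encodes a subunit of the nexin-dynein regulatory complex, which links the microtubule doublets of motile cilia. It lies on the chromosome of Htt (ENSMUSG00000073102, GRCm38 chr5:30281388-30366695, plus strand), with its start at -4.48 Mb from the start of Htt. Drc1 lay at 15.47, 19.11 and 20.55 CPM (lowest, median, highest) in Q80 and at 14.4, 15.44 and 16.59 CPM in Q20 libraries. Of the 8 Q80 libraries, 7 lay above every Q20 library, and Q80 Male 2, the lowest, lay among the Q20 libraries. The means were 18.5 ± 1.82 CPM in Q80 and 15.4 ± 0.75 CPM in Q20 (SD, n = 8 each). The log2 difference was 0.26 ± 0.05 (SE, edgeR adjusted p = 0.034), a 1.2-fold level with a 95% interval of 0.16 to 0.36 on the log2 scale.

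Both calls lay near the threshold. When 1 of the 16 libraries was left out, Cdr1 remained called in 8 of 16 fits and Drc1 in 4 of 16, while their log2 differences stayed between 0.28 and 0.32 for Cdr1 and between 0.24 and 0.29 for Drc1. No gene was called without Q20 Female 1, Female 2, Female 4 or Male 2, or without Q80 Female 3, Male 1 or Male 4. With only the 16 libraries in the fit Cdr1 kept its call (adjusted p = 0.0079) and Drc1 did not (adjusted p = 0.32).

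**Figure D1:**
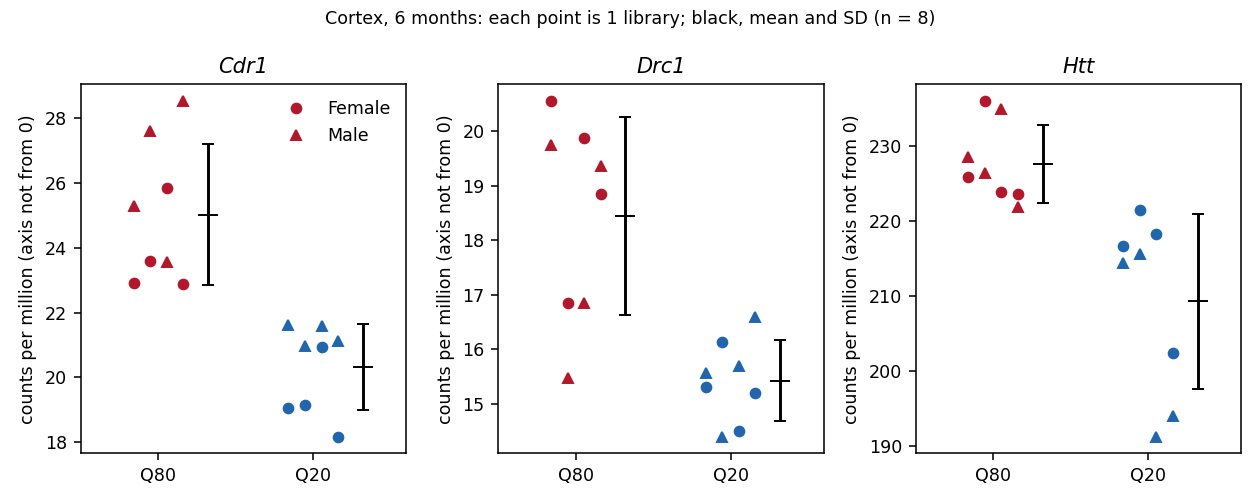
CPM (vertical axis, not from 0) of Cdr1, Drc1 and Htt in each Q80 library (left, red) and each Q20 library (right, blue) of 6 months, with females as circles and males as triangles; black bars give the mean and SD of 8 libraries. The groups do not overlap for Cdr1 (from 22.87 CPM in Q80, up to 21.63 CPM in Q20) or Htt (from 221.9 CPM in Q80, up to 221.5 CPM in Q20), and 3 Q80 libraries lie near the Q20 ones for Drc1.

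The Q80 libraries were not alike in Drc1. Q80 Male 2 (15.5 CPM), Male 3 (16.8 CPM) and Female 2 (16.9 CPM) were the lowest, and the other Q80 libraries started at 18.9 CPM. The same 3 libraries were the lowest Q80 libraries for some other genes of chromosome 5, which were chosen after their values were seen. The share of all genes with these same lowest libraries is not given here. Galnt11, which encodes an enzyme that starts O-linked glycosylation, lay at no more than 34.9 CPM in these 3 and at 38.3 CPM or more in the other Q80 libraries, against 32.3 to 35.5 CPM in Q20 libraries. The pseudogene Gm5067 lay at no more than 0.778 CPM in these 3 and at 1.34 CPM or more in the other Q80 libraries, against 0.383 to 0.806 CPM in Q20 libraries. In the gene models 5031410I06Rik, Gm10471 and Gm5862, which lie close together, and in the long noncoding gene 6030443J06Rik, Q80 Female 2, Male 2 and Male 3 were again the 3 lowest. The 3 lowest Q80 libraries of Cdr1, which is on another chromosome, were Female 4, Female 1 and Male 3, and those of Htt were Male 4, Female 4 and Female 3. These 3 libraries were picked out by their values, and no comparison between them and the others was tested.

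**Figure D2:**
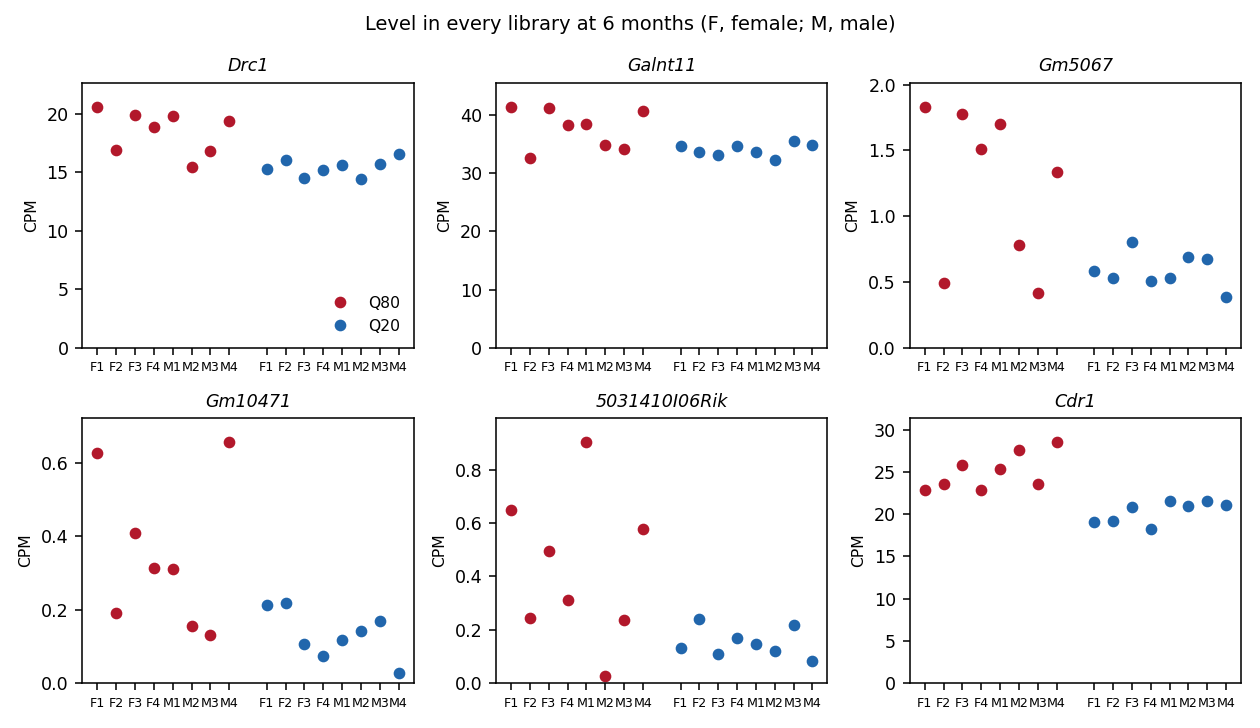
CPM (vertical axes, from 0) in every library of 6 months for 5 genes of chromosome 5 and for Cdr1 on chromosome X, with the 8 Q80 libraries on the left in red and the 8 Q20 libraries on the right in blue; F is female and M male. Q80 F2, M2 and M3 lie at or near the Q20 level in the 5 chromosome 5 genes, for Drc1 at 16.9, 15.5 and 16.8 CPM.

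Of the 163 genes tested within 10 Mb of Htt, 17 (10.4%) had an unadjusted p under 0.05, against 5.1% of all genes, 12 of them higher and 5 lower. In the libraries of the other ages, 10 of the 17 had the same sign at 2 months, 6 of them with an unadjusted p under 0.05, and 15 at 10 months, 8 of them with an unadjusted p under 0.05. Over all genes with an unadjusted p under 0.05 at 6 months, 29.6% kept their sign at 2 months and 75.6% at 10 months. Those with the same sign and an unadjusted p under 0.05 were 68 of 879 at 2 months and 84 of 874 at 10 months. Of the 17, Htt, Selenoi and Bod1l were among those of opposite sign at 2 months, at -0.08, -0.16 and -0.19 on the log2 scale. For Htt at 2 months, Q80 Female 3 and Male 5 lay at 111.5 and 114.7 CPM, and the other Q80 libraries at 207.3 to 240.3 CPM. The Htt medians of 2 months were 219.6 CPM in Q80 and 209.3 CPM in Q20. Galnt11 differed by 0.15 ± 0.04 on the log2 scale, Gm5067 by 1.05 ± 0.28, 5031410I06Rik by 1.47 ± 0.42 and Gm10471 by 1.36 ± 0.40 (edgeR adjusted p = 0.70 to 0.79). The last 3 averaged 1.23, 0.431 and 0.349 CPM in Q80 and 0.588, 0.152 and 0.133 CPM in Q20, and reads of such models may be split among similar copies. In the libraries of 2 months, which are other libraries, these 4 genes differed by 0.23, 1.58, 1.46 and 2.17 on the log2 scale in the order given, and in those of 10 months by 0.16, 1.29, 1.84 and 1.84. Drc1 differed by 0.20 on the log2 scale at 2 months, with 8 of 8 Q80 libraries above the Q20 median (exact permutation test over samples, two-sided p = 0.00047, adjusted over 4 tests 0.0019). At 10 months Drc1 differed by 0.22, with 7 of 8 Q80 libraries above the Q20 median (exact permutation p = 0.00093, adjusted 0.0019). The permutation tests did not use sex, and the Q80 group of 2 months held more males than females. In the edgeR fits over all genes with sex as a covariate, Drc1 was not called at 2 months (adjusted p = 0.11) or 10 months (adjusted p = 0.23). Cdr1 differed by -0.16 on the log2 scale at 2 months, with 4 of 8 Q80 libraries above the Q20 median (exact permutation p = 0.32, adjusted 0.32). At 10 months Cdr1 differed by 0.22, with 6 of 8 above (exact permutation p = 0.18, adjusted 0.24), so that neither passed. At 2 months the lowest Q80 libraries for Cdr1 were Female 3, Male 5 and Male 4, at 11.92, 13.09 and 16.24 CPM. The other Q80 libraries of that age lay at 21.45 to 25.2 CPM. The Cdr1 medians of 2 months were 22.19 CPM in Q80 and 21.48 CPM in Q20.

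**Figure D3:**
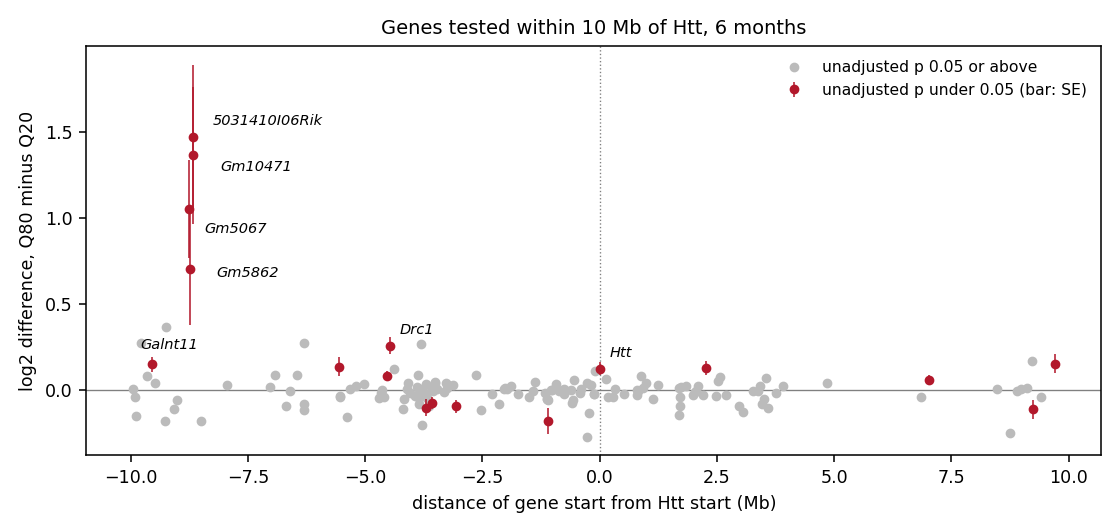
Log2 difference of Q80 minus Q20 at 6 months (vertical axis) for the 163 genes tested within 10 Mb of Htt, by the distance of their start from that of Htt in Mb (horizontal axis); red points have an unadjusted p under 0.05 and carry standard errors. Drc1 stands at -4.48 Mb with 0.26, and the points above 0.5 are a cluster of gene models at about -8.7 Mb.

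Htt itself, measured over both alleles together, was not called. Htt lay at 221.9, 226.2 and 236 CPM (lowest, median, highest) in Q80 and at 191.3, 215.1 and 221.5 CPM in Q20 libraries. All 8 Q80 libraries lay above all 8 Q20 libraries, by a narrow margin. The log2 difference was 0.12 ± 0.04 (SE, edgeR unadjusted p = 0.0024, adjusted p = 0.93). With a length offset, described below, it was 0.08 (adjusted p = 0.56). In the other genotypes of 6 months Htt averaged 202 ± 3.79 CPM in WT, 228 ± 10.3 CPM in Q92, 209 ± 9.25 CPM in Q111, 186 ± 6.78 CPM in Q140 and 155 ± 16.1 CPM in Q175 (SD, n = 8 each). Of 19 polyglutamine disease genes and huntingtin partners, Htt among them, 15 lay above 0, with a median of 0.033 on the log2 scale against -0.003 for all genes. Among them 2 had an unadjusted p under 0.05, Htt and Cacna1a, both on the higher side, against 2.5% of all genes. With the length offset 14 of 19 lay above 0, with a median of 0.037, and 1 had an unadjusted p under 0.05, on the higher side. The 19 genes summed to 1790 to 1832 CPM in Q80 and 1723 to 1774 CPM in Q20, without overlap. These sums include Htt, which did not overlap on its own, and the list is 1 of 34 that were summed. Cacna1a, a calcium channel subunit, differed by 0.08 ± 0.04 (adjusted p = 0.95), and no member was called.

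The genes next in order of p did not pass. Sall3, a zinc finger transcription factor, lay at 5.65, 7.07 and 8.71 CPM (lowest, median, highest) in Q80 and at 8.12, 9.57 and 10.5 CPM in Q20, a log2 difference of -0.39 ± 0.09 (edgeR adjusted p = 0.29). Gucy1a2, a subunit of the soluble guanylate cyclase that answers nitric oxide, lay at 3.84, 5.83 and 6.17 CPM in Q80 and at 3.45, 4.05 and 4.76 CPM in Q20, a log2 difference of 0.44 ± 0.10 (adjusted p = 0.32). In Gucy1a2, 7 of 8 Q80 libraries lay above every Q20 library, and in Sall3, 6 of 8 lay below every Q20 library. Akap5, which anchors protein kinase A at excitatory synapses, lay at 114 to 123 CPM in Q80 and 99.8 to 113 CPM in Q20 (0.12 ± 0.03, adjusted p = 0.70), with no overlap. Higd1a, a mitochondrial protein gene induced by hypoxia, lay at 56.3 to 60.1 CPM in Q80 and 60.2 to 64.1 CPM in Q20, a log2 difference of -0.08 ± 0.03.

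Small shifts followed the length of the transcript. Over the 10205 genes of at least 10 CPM with an annotated transcript, the log2 difference correlated with the length of the longest transcript (Spearman's rho 0.34 across genes, which are not independent replicates and share the 16 libraries). The median was -0.037 for the 330 genes under 1 kb and 0.029 for the 773 genes of 8 kb or more. In the other libraries rho was -0.70 at the age of 2 months and 0.33 at 10 months. The 2-month libraries had medians of 0.21 under 1 kb and -0.12 at 8 kb or more. An alternative with a length offset for each library, chosen after seeing the data, left the same 2 genes called at 6 months, Cdr1 at 0.32 and Drc1 at 0.27 on the log2 scale (adjusted p = 0.037 for both). For some of the lists below the values with the length offset are also given. All other values are without it, although the offset moved some of those lists as well. For example, 11 of 20 microglia markers lay above 0 without the offset and 14 with it. The interneuron median was -0.023 without it and -0.006 with it.

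**Figure D4:**
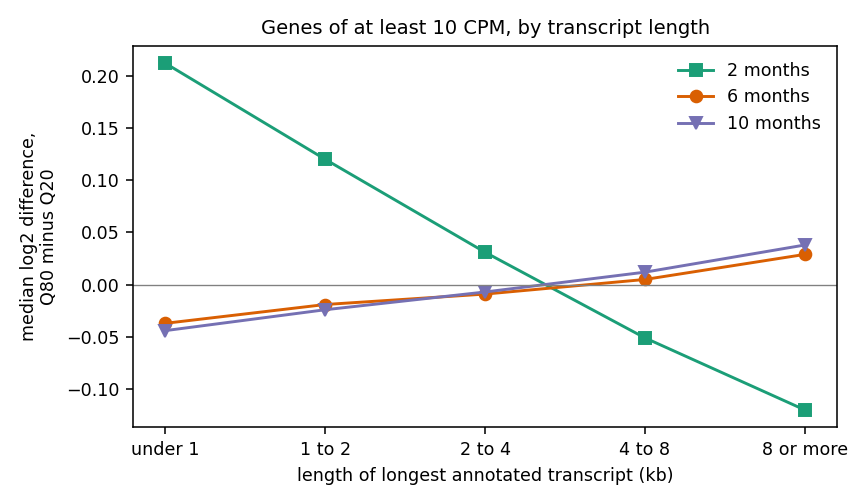
Median log2 difference of Q80 minus Q20 (vertical axis) over genes of at least 10 CPM in 5 classes of transcript length in kb (horizontal axis), at 2, 6 and 10 months. At 6 and 10 months the median goes up with length, to 0.029 and 0.038 at 8 kb or more, and at 2 months it goes down with length, to -0.12.

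Of 34 gene lists, none had a called member. Calls were 0.0114% of all genes tested, so that lists of this size would seldom hold one. The short and abundant transcripts of the ribosome and the respiratory chain lay below 0 together. Of 34 ribosomal protein genes tested, 33 lay below 0 and 6 had an unadjusted p under 0.05 on the lower side, against 2.6% of all genes (median -0.044 on the log2 scale). Of 29 nuclear genes of the respiratory chain, 27 lay below 0, 7 with an unadjusted p under 0.05 on the lower side (median -0.025). Ndufa4, a subunit of cytochrome c oxidase, lay at 142 to 150 CPM in Q80 and 150 to 161 CPM in Q20, a log2 difference of -0.08 ± 0.03 (adjusted p = 0.93). With the length offset 24 of 34 and 14 of 29 lay below 0, 2 in each list had an unadjusted p under 0.05 on the lower side, and the medians were -0.011 and 0.002. At 2 months, where the trend with length ran the other way, all 34 ribosomal protein genes lay above 0, with a median of 0.23. Of these, 26 had an unadjusted p under 0.05 on the higher side, against 11.2% of all genes. Of 13 mitochondrially encoded transcripts 11 lay below 0, with a median of -0.020, and 1 with the length offset.

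Receptors of the synapse, which are long transcripts, lay above 0 more often than below. Of 22 glutamate receptor genes 16 lay above 0, and 4 had an unadjusted p under 0.05, all higher, against 2.5% of all genes (median 0.029). They were Grm5, a metabotropic receptor (0.09 ± 0.035), the NMDA receptor subunits Grin2b (0.16 ± 0.06) and Grin2a (0.22 ± 0.09), and the AMPA receptor subunit Gria2 (0.06 ± 0.03), with adjusted p of 0.93 to 0.95. Grin2a lay at 25.6, 29.5 and 31.9 CPM (lowest, median, highest) in Q80 and at 21.3, 26.2 and 26.98 CPM in Q20, and 5 of 8 Q80 libraries lay above every Q20 library. Of 16 genes for GABA receptors and transporters 11 lay above 0, and the receptor subunits Gabra2 (0.14 ± 0.05) and Gabrb2 (0.12 ± 0.06) had an unadjusted p under 0.05. With the length offset the medians were 0.027 for the glutamate and 0.010 for the GABA list, and 3 glutamate and 2 GABA genes had an unadjusted p under 0.05 on the higher side. At 2 months 18 of 22 glutamate and 14 of 16 GABA genes lay below 0, with 6 and 4 at an unadjusted p under 0.05 on the lower side, against 7.71% of all genes. Of 50 potassium channel genes 28 lay above 0 (median 0.013).

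Genes that mark the striatum, where Huntington's disease knock-in mice are best known to lose expression, gave no call here. With 0.0114% of all genes called, the lack of a call says little about a list of this size. Of 22 striatal projection neuron markers 21 lay above 0, with a median of 0.094, but none had an unadjusted p under 0.05, and the median SE was 0.114. The phosphodiesterase gene Pde10a lay at 110.9, 146.5 and 181.4 CPM (lowest, median, highest) in Q80 and at 87.56, 119.5 and 146.1 CPM in Q20, a log2 difference of 0.22 ± 0.12 (adjusted p = 0.95). The list summed to 2133 to 2580 CPM in Q80 and 1920 to 2299 CPM in Q20, so that the groups overlapped. The opioid peptide gene Penk lay at 105.2 to 154.5 CPM in Q80 and 93.71 to 146.7 CPM in Q20 (0.03 ± 0.13). In libraries of their own, 19 of 22 striatal markers lay above 0 at 2 months, 3 with an unadjusted p under 0.05 on the higher side (11.2% of all genes), and 20 of 22 at 10 months, 5 on the higher side (3.12% of all genes). Of the cAMP, calcium and opioid signalling list, 37 genes, 31 lay above 0 (median 0.038, and 0.031 with the length offset). Pde7b, a cAMP phosphodiesterase, differed by 0.18 ± 0.06 and Prkacb, a catalytic subunit of protein kinase A, by 0.06 ± 0.02 (adjusted p = 0.93 and 0.95). The amount of striatum in each cortical sample was not measured, and the part of tissue content in these values was not tested.

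Circadian clock genes stood lower in Q80 as a list, although no member was called. Of 18 tested, 15 lay below 0 and 5 had an unadjusted p under 0.05 on the lower side, against 2.6% of all genes. The median was -0.115 on the log2 scale, and -0.106 with the length offset, against -0.003 for all genes. Bhlhe41, a repressor of clock target genes, lay at 27.3, 32.2 and 37.8 CPM (lowest, median, highest) in Q80 and at 30.7, 39.5 and 43.0 CPM in Q20, a log2 difference of -0.23 ± 0.06 (edgeR adjusted p = 0.67). Ciart, a repressor with a strong daily rhythm, lay at 13.9, 17.1 and 24.7 CPM in Q80 and at 13.6, 23.7 and 38.4 CPM in Q20 (-0.37 ± 0.11, adjusted p = 0.91). The groups overlapped in both, and Ciart spread more widely among Q20 libraries. Dbp, a rhythmic transcription factor, differed by -0.23 ± 0.08, and the nuclear receptor genes Nr1d2 and Nr1d1 by -0.13 ± 0.04 and -0.11 ± 0.06. The activators of these genes lay on the other side, with Npas2 at 0.10 ± 0.04 (unadjusted p = 0.0094, adjusted p = 0.93), Arntl at 0.08 ± 0.05 and Clock at 0.06 ± 0.04. The period genes Per1 and Per2, at -0.14 ± 0.16 and -0.22 ± 0.20, had wide errors.

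The promoters of Bhlhe41 and Ciart are shown because both hold the E-box CACGTG, in capitals, to which the clock activators are known to bind (RefSeq, GRCm38.p6, 300 bases around the start, mostly upstream, written along the gene; chr6:145865371-145865670 and chr3:95882179-95882478, both minus strand).
Bhlhe41 promoter: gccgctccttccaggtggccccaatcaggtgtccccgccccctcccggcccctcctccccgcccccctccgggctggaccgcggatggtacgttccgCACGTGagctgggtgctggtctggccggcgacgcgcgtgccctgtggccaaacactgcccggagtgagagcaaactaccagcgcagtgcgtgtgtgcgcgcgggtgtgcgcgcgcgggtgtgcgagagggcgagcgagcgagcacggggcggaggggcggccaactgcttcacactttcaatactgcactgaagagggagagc
Ciart promoter: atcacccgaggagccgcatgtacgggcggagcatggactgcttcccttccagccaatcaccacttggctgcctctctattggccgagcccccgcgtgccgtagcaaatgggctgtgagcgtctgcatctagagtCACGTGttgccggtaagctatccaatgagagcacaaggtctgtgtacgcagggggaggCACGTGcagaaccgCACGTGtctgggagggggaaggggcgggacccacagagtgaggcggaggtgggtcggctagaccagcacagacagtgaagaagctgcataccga
The E-box, which reads the same on both strands, occurred once in the first window and 3 times in the second. It was found in the windows of 5 of the 15 clock genes with a promoter in the table (Bhlhe41, Ciart, Cry1, Per1 and Tef) and in 7.15% of all 32851 promoters. The D-box TTATGTAA, searched on both strands, was found in 1 of the 15 (Per3) and in 0.938% of all. These matches are of letters only. A clock gene was counted if any of its windows held the motif, while the percentages are over single windows.

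At 10 months, in other libraries, 11 of 18 clock genes lay below 0 with a median of -0.043 and 3 had an unadjusted p under 0.05 on the lower side, against 2.71% of all genes. Bhlhe41 differed by -0.27 on the log2 scale, Dbp by -0.36 and Nr1d1 by -0.21. At 2 months the median was -0.006 and no clock gene had an unadjusted p under 0.05. Across the genotypes of 6 months, Bhlhe41 averaged 40.3 ± 4.72 CPM in WT, 38.0 ± 4.50 CPM in Q20, 32.4 ± 3.55 CPM in Q80, 39.6 ± 1.92 CPM in Q92, 38.4 ± 4.57 CPM in Q111, 31.5 ± 1.49 CPM in Q140 and 34.0 ± 4.03 CPM in Q175 (SD, n = 8 each). Bhlhe41 thus did not follow the order of repeat length. The hour of tissue collection, housing and library block were not tested as parts of these differences.

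**Figure D5:**
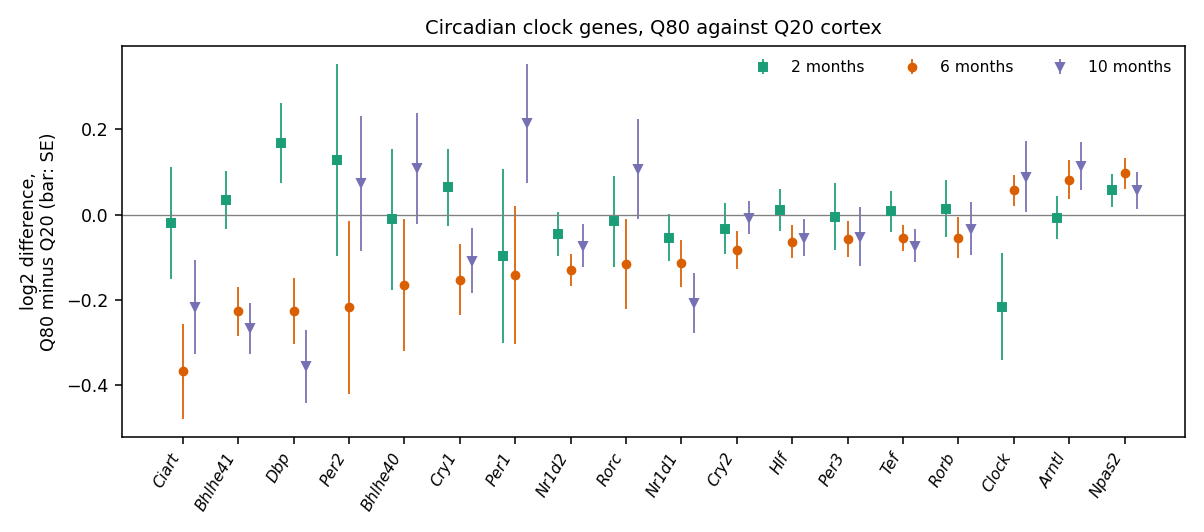
Log2 difference of Q80 minus Q20 with its standard error (vertical axis) for 18 circadian clock genes, ordered by their value at 6 months, at 2 months (squares), 6 months (circles) and 10 months (triangles). At 6 months 15 of 18 lie below 0, with Npas2, Arntl and Clock above it, and at 2 months the points scatter about 0 with a median of -0.006.

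Markers of other cells of the cortex gave no call, where 0.0114% of all genes were called. Of 18 astrocyte markers 17 lay below 0, with a median of -0.028 and none with an unadjusted p under 0.05, and of 23 oligodendrocyte markers 17 lay below 0 (median -0.043). The myelin gene Mag lay at 112.5 to 130.7 CPM in Q80 and 120.1 to 142.9 CPM in Q20 (-0.08 ± 0.05, edgeR adjusted p = 0.95). Of 20 microglia markers 11 lay above 0, with a median of 0.001, and gliosis genes had a median of -0.028 over 18. The vascular list stood a little lower, with 14 of 17 below 0 and 3 with an unadjusted p under 0.05 on the lower side, against 2.6% of all genes. These were the endothelial adhesion gene Esam (-0.14 ± 0.05), Itm2a (-0.12 ± 0.05) and the pericyte channel gene Kcnj8 (-0.18 ± 0.08), with adjusted p of 0.93 to 0.95. The vascular markers summed to 596.7, 636.6 and 713.5 CPM (lowest, median, highest) in Q80 and to 621.6, 654.7 and 711.6 CPM in Q20, so that the groups overlapped. At 10 months 12 of these 17 lay above 0.

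Among neurons, excitatory markers had a median of 0.008 over 12 genes, upper layer markers of -0.025 over 12, deep layer markers of -0.035 over 14 and interneuron markers of -0.023 over 22. The interneuron transcription factor gene Dlx1 lay at 40.7 to 46.7 CPM in Q80 and 42.7 to 56.9 CPM in Q20 (-0.17 ± 0.07, adjusted p = 0.95). Nos1, which makes nitric oxide, lay at 61.2 to 66.3 CPM in Q80 and 50.8 to 63.8 CPM in Q20 (0.12 ± 0.05, adjusted p = 0.93). Lists of stress and activity stood near 0. Heat shock genes had a median of 0.002 over 18, the unfolded protein and integrated stress response of -0.019 over 24, and immediate early genes of -0.004 over 24. Cholesterol synthesis had -0.007 over 25, interferon-stimulated genes -0.032 over 27, p53 targets -0.014 over 17 and mismatch repair genes 0.030 over 11. The beta protocadherins had a median of 0.030 over 21. The choroid plexus (-0.51, median SE 0.48), liver (-1.08, median SE 1.97) and blood (-0.21, median SE 0.15) lists had medians farther from 0, with larger errors. Hippocampal markers had -0.017, thalamic markers 0.023, oligodendrocyte precursor markers 0.012 and meningeal markers -0.026. At 7 of the 13 liver transcripts the mean was under 0.1 CPM in Q80 and in Q20.

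The difference between Q80 and Q20 was compared between females and males. The interaction of allele with sex gave 0 calls with edgeR (0.0% of 17611 genes) and 0 with DESeq2. In edgeR 660 genes (3.75%) had an unadjusted p under 0.05. For Cdr1 the female minus male difference was 0.00 ± 0.10 on the log2 scale, and for Drc1 it was 0.12 ± 0.10.

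The same pair of alleles was measured at 2 and 10 months in libraries of their own. At 10 months 4 of 17219 genes were called (0.0232%), Nptx2, Ptgs2, Pknox1 and Gmeb2, all higher in Q80. Nptx2, a synaptic pentraxin induced by activity, differed by 0.55 ± 0.10 at 10 months and by 0.05 ± 0.10 at 6 months. Ptgs2, a cyclooxygenase gene induced by activity, differed by 0.50 ± 0.09 at 10 months and by -0.09 ± 0.12 at 6 months. All 24 immediate early genes, which neuronal firing induces, lay above 0 at 10 months, 15 with an unadjusted p under 0.05 (5.82% of all genes) and with a median of 0.44. At 6 months 12 of the 24 lay above 0, none had an unadjusted p under 0.05, and the median was -0.004 with a median SE of 0.18. At 2 months 8 of 17194 genes were called (0.0465%), of which Galnt11, Gm10471 and Gm6410 were higher and Prune2, Nyx, Thbs2, Nub1 and Birc7 lower. Gm6410 differed by 0.56 ± 0.18 at 6 months (edgeR unadjusted p = 0.0024, adjusted p = 0.93), where it lay at 1.11 to 1.89 CPM in Q80 and 0.758 to 1.35 CPM in Q20. Tested directly, no gene was called for a difference between ages in its Q80 minus Q20 value. Between 6 and 10 months the calls were 0.0% of 17834 genes (edgeR), with 559 (3.13%) at an unadjusted p under 0.05. Between 6 and 2 months they were 0.0% of 17827 genes (edgeR), with 3112 (17.5%) at an unadjusted p under 0.05. For Cdr1 the difference at 6 months minus that at 2 months was 0.43 ± 0.15 on the log2 scale (adjusted p = 0.18). The low Q80 libraries of 2 months named above are part of this value. Of the 874 genes with an unadjusted p under 0.05 at 6 months that were tested at 10 months, 75.6% had the same sign there, against 57.5% of all genes, and Pearson's r over 17108 genes was 0.17. At 2 months 29.6% of 879 had the same sign, against 40.8% of all, and r was -0.01. The trend with transcript length ran the same way at 6 and 10 months and the opposite way at 2 months, and its part in these shares was not tested.

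Against other alleles of 6 months the counts of called genes differed, in comparisons that share libraries with each other. Q92 against Q20, sharing the Q20 libraries, had 170 calls (0.965%), 142 higher and 28 lower. Q80 against Q92, sharing the Q80 libraries, had 188 calls (1.07%), 14 higher and 174 lower. Q175 against Q20 had 1691 calls (9.6%), against 2 for Q80. Q80 against WT had 5747 calls (32.6%), and WT against Q20 had 5512 (31.3%), although neither Q20 nor WT carries a long repeat. WT mice were housed with Q20 mice, but WT libraries have names of another series, which cannot be told apart from genotype. Drc1 averaged 14.8 ± 0.69 CPM in WT, 15.4 ± 0.75 CPM in Q20, 18.5 ± 1.82 CPM in Q80, 17.4 ± 1.51 CPM in Q92, 17.95 ± 0.82 CPM in Q111, 18.3 ± 0.87 CPM in Q140 and 17.8 ± 1.62 CPM in Q175 (SD, n = 8 each). The 5 longer alleles thus had means above Q20 and WT, in no order of length, and their ranges overlap each other. Cdr1 averaged 18.7 ± 1.70 CPM in WT, 20.3 ± 1.33 CPM in Q20, 25.0 ± 2.17 CPM in Q80, 21.4 ± 1.84 CPM in Q92, 22.4 ± 1.59 CPM in Q111, 24.9 ± 1.42 CPM in Q140 and 20.4 ± 2.21 CPM in Q175 (SD, n = 8 each). Q80 and Q140 were thus the highest for Cdr1, while Q175, with the longest repeat, stood at the Q20 level. Cdr1 was called higher in Q80 than in Q92 (0.23 ± 0.06, edgeR adjusted p = 0.018). Genes that mark long alleles in this cortex stood near Q20 in Q80 at 6 months, chosen after their values were seen. Scn4b, a sodium channel subunit of striatal projection neurons, averaged 127 ± 9.69 CPM in Q20, 134 ± 18.3 CPM in Q80 and 78.4 ± 5.29 CPM in Q175. Chdh, a choline dehydrogenase gene, averaged 6.47 ± 0.68 CPM in Q20, 6.61 ± 0.72 CPM in Q80 and 9.61 ± 0.83 CPM in Q175 (SD, n = 8 each).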

How the data were processed

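The authors deposited estimated counts per gene, of which 17.7% were not whole, and FPKM values, scaled by gene length and library size, for the same libraries. Per the submitters' processing notes, CASAVA 1.8.2 was used. For the aligner, quantifier, build and annotation nothing is given in the sources used here. Of 39179 gene IDs 37607 matched a symbol in GENCODE M21 (GRCm38), and unmatched IDs held 0.32% of counts.

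Counts were rounded to whole numbers. Genes were filtered by edgeR 4.0.16 filterByExpr (minimum count 10, minimum total 15), scaled by TMM and tested with robust quasi-likelihood F tests, two-sided, with Benjamini-Hochberg adjustment over all genes tested. Errors of log2 differences are standard errors. CPM are TMM-scaled. Exact permutation tests used log2 (CPM + 0.5). The alternatives were DESeq2 1.42.0 as the test (an adjusted p it did not give stayed missing), its size factors, no filter, other sets of libraries, no sex term, a replicate block, the L number in library names as a factor, limma 3.58.1 on log2 FPKM with pseudocounts of 0.1 and 1, and each library left out. A length offset per library (lowess, span 0.3, of log2 CPM on log2 transcript length) was added after seeing the data, as were Q175 and WT against Q20. The tests were tried on simulated data.

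The gene lists and comparisons were chosen with earlier results of these data known. The rule for named genes took, among called genes without clone names, up to 10 each way by p and 5 by size, up to 4 per list, up to 2 near Htt and for sex and age, and Htt always, which gave Cdr1, Drc1 and Htt. R 4.3.3, Python 3.11.15, pandas 2.3.3, SciPy 1.17.1 and matplotlib 3.10.9 were used.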

Additional observations from a re-analysis of the deposited data

Results flagged for a closer look

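Of 34 groups of 8 libraries examined for 1 library far from the rest, 1 was picked out, where chance picks about 1 in 20. In Gucy1a2, Q80 Female 4 lay at 3.84 CPM while the other Q80 libraries lay at 5.38 to 6.17 CPM, and its gap to the nearest was 0.662 of the range of the group.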

How the results depend on the processing

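Over 444 alternative values for 16 genes none reversed its direction, 30 lost a call, all of Cdr1 or Drc1, and 1 gained one. The count of 2 called genes at 6 months was 1 with only the 16 libraries and 1 without the wild types. It was 0 with the L number in library names as a factor (928 at an unadjusted p under 0.05), with limma on log2 (FPKM + 0.1) (940), on log2 (FPKM + 1) (942) and on log2 (FPKM + 0.1) without a filter (1382), and DESeq2 gave 2. Leaving out 1 library gave 0 to 2 calls, 0 in 7 fits, 1 in 6 and 2 in 3. Without Q80 Male replicate 1 the 2-month count was 17 instead of 8. The adjusted p of Cdr1 ranged from 0.0034 to 0.27 and that of Drc1 from 0.0058 to 0.75 over the other settings. The replicate block gave 3 calls, with Bhlhe41 added (adjusted p = 0.032). Libraries with the same number correlated at 0.001 to 0.308, and 4 of 8 correlated best with their own number, a hint from the data and not from the design. Since the labels tie no number to a litter, batch or day and not every pair was over 0.1, the numbers were not taken to pair the libraries. With only the libraries compared, the counts were 2 at 2 months, 0 at 10 months (699 unadjusted), 98 for Q92 against Q20 and 94 for Q80 against Q92. With DESeq2 they were 73 at 2 months and 12 at 10 months. The cause of these changes was not tested. Differences under about 1.15-fold are within the error for many genes, and counts of transcripts under 1 CPM limit what can be said of them.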

Other observations

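Genes of other tissues set single libraries apart at 6 months. Transthyretin (Ttr) lay at 865 and 542 CPM in the 2 highest Q80 libraries and at 912 and 758 CPM in the 2 highest Q20 libraries, with medians of 11.3 CPM in Q80 and 13.6 CPM in Q20, a log2 difference of -0.76 ± 0.93. The liver transcripts other than those shared with the choroid plexus list, 12 in number, summed to at most 2.20 CPM in Q80, and to 9.88 CPM in Q20 Male 2 but at most 1.59 CPM in the other Q20 libraries. Prl lay at no more than 0.57 CPM in Q80 and at 11.6 CPM in Q20 Male 4, with 0.265 CPM next, and Pomc followed with 11.1 CPM in Q20 Male 4 and 1.45 CPM next.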
